A study of Homo sapiens with 4 samples.

Results

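DEFB1 (ENSG00000164825) encodes human beta-defensin 1, and its ac4C signal was described here from the acRIP-seq of FaDu cells. Its members were all rows with this gene identifier in the peak lists of the control and the NAT10 knockdown cells, and any row in the table of differential peaks. The rule found 1 gene of the 6723 gene identifiers with a peak, with 1 of the 6403 peaks of the shNC list, 1 of the 6417 peaks of the shNAT10 list and 0 of the 2807 rows of the differential table. The gene was chosen by its fold enrichment and its place in the lists, so these values are given as a description and no test was made on them.

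FaDu is an established human line of hypopharyngeal squamous cell carcinoma. The cells carried either a control shRNA (shNC) or an shRNA against NAT10 (shNAT10). Per the methods, such lines were made with a lentivirus and puromycin selection, and the labels do not say which hairpin against NAT10 the sequenced cells carried. In acRIP-seq, total RNA is cut into short fragments and an antibody against ac4C enriches those with the mark (IP), while fragments not enriched in this way serve as input. There were 4 libraries, 1 IP and 1 input per condition, so replicates were lacking throughout, and every difference between the conditions compares libraries only. The depth is unknown, because the lists hold peaks and not reads, and they give no RNA level of NAT10, so the knockdown could not be checked here. The paper reports a check of NAT10 knockdown by qRT-PCR and western blot in the FaDu cells made for its mouse model. NAT10 had 1 peak in each list, with a fold enrichment of 6.91 in shNC and 12 in shNAT10.

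N4-acetylcytidine (ac4C) is a cytidine with an acetyl group, and NAT10 is the enzyme known to place it on RNA. Beta-defensins are small, positively charged peptides with disulfide bonds that epithelial cells secrete against bacteria and fungi at the skin, airway, gut and mouth. DEFB1 is the member that most epithelia make all the time, whereas its relatives, such as DEFB4A and DEFB103A, are switched on by microbes and inflammation. Its mRNA is short and is joined from a pair of exons that lie far apart in the gene.

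The ac4C peak of DEFB1 lay in 2 blocks at the opposite ends of the gene, called its exons here, in both conditions. In shNC cells it spanned 6870664 to 6877962 of chromosome 8, minus strand (GRCh38, counted from 1) and consisted of 2 exonic blocks. The block of the 3′ exon, from 6870664 to 6870826, was 163 nt long. The block of the 5′ exon, from 6877797 to 6877962, was 166 nt long. Between them the peak skipped 6970 nt of intron, and the exonic length was 329 nt. Peaks of 2 blocks made up 17.5% of the shNC list (1121 peaks), and their median skipped distance was 679 nt, so that the DEFB1 peak stood at place 75 among them by this distance.

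In shNAT10 cells the peak ran from 6870635 to 6877992 with an exonic length of 388 nt, 192 nt in the 3′ exon and 196 nt in the 5′ exon. The edges at the junction, 6870826 and 6877797, were the same in both lists. The outer edges lay 29 nt further towards the 3′ end and 30 nt further towards the 5′ end in shNAT10. The shNC peak therefore lay wholly inside the shNAT10 peak and covered 84.8% of its exonic length. An equal junction was not particular to DEFB1, because 427 of the 430 overlapping pairs of 2-block peaks of the same gene (99.3%) had the same inner edges in both lists. The median difference in exonic length over all 3201 overlapping pairs of the same gene was 0 nt, and for DEFB1 it was 59 nt, longer in shNAT10 than that of 75.2% of the pairs.

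The RefSeq gene DEFB1 (GRCh38.p14) spans 7345 nt from 6870592 to 6877936, and no other RefSeq gene overlapped it. No exon bounds were used from an annotation: the stretch that both peaks skipped was taken as the intron, so the inner edge of each exon is the edge of the peak by construction. Without this stretch, 375 nt were left, 140 nt at the 5′ exon and 235 nt at the 3′ exon. The shNC peak covered 80.8% of these 375 nt and the shNAT10 peak 88.5%. Both peaks ran from this inner edge to the RefSeq 5′ end and past it, with 26 nt for the shNC peak and 56 nt for the shNAT10 peak. The 3′ exon was covered over 69.4% in shNC and 81.7% in shNAT10, and the part without a peak was the last 72 nt for the shNC peak and the last 43 nt for the shNAT10 peak. The DEFB1 peak thus ran along most of the mRNA in both conditions. The region classes of the deposited data are given for differential peaks only, so none was given for DEFB1.

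The fold enrichment of a peak is the linear ratio of IP over input within 1 condition. For DEFB1 it was 342 in shNC and 210 in shNAT10. The value of 342 was the highest of the shNC list (place 1 of 6403), 27.6 times the list median of 12.4 and 1.15 times the next value, 297. The value of 210 stood at place 13 of 6417 in shNAT10, 16.9 times the list median of 12.4, and it was 57.4% of the highest value, 366. Just beside it in that list were 212 above and 206 below. A fold enrichment of 100 or more was listed for 123 shNC peaks and 96 shNAT10 peaks, so DEFB1 stood far inside this group in both conditions. Where places listed under several overlapping genes were counted once, a choice made after seeing the data, DEFB1 stood at place 1 in shNC and 11 in shNAT10.

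By the p-value of the peak caller, which in general also depends on the number of reads, DEFB1 stood lower. Its log10 p-value was -780 in shNC, at place 220 of 6403, and -761 in shNAT10, at place 199 of 6417. The list medians were -10.1 and -9.29. Among the peaks with a fold enrichment of 100 or more it was 16th of 123 by p-value in shNC and 12th of 96 in shNAT10, and the median log10 p-values of these groups were -146 and -121. The FDR of both DEFB1 peaks was listed as minus infinity on the log10 scale, as for 388 shNC and 354 shNAT10 peaks.

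The shNC peak of DEFB1 and its shNAT10 peak formed 1 of 3201 overlapping pairs of the same gene. The ratio of the fold enrichments, shNAT10 over shNC, was 0.614 for DEFB1, against a median of 0.945 over all pairs, and the middle 50% of the pairs lay between 0.508 and 1.79. A lower ratio than that of DEFB1 was found in 31.5% of the pairs. How the libraries were scaled to each other is unknown, so only the place of DEFB1 among the pairs can be read and not the size of the ratio. No other shNC peak reached the value of DEFB1. Over the 107 pairs with a shNC fold enrichment of 100 or more, the median ratio was 0.270, and 88 had a lower ratio than DEFB1. Choosing pairs by a high shNC value lowers this ratio by itself, and choosing them by a high shNAT10 value raises it: the 80 pairs with a shNAT10 value of 100 or more had a median ratio of 3.49.

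Only 12 pairs had a fold enrichment of 100 or more in both lists. By the lower of both values, DEFB1 (210) was at place 2 of all pairs. RPP25, a protein subunit of RNase P and RNase MRP, was at place 1 with 297 in shNC and 318 in shNAT10. TMEM160, which encodes a membrane protein, was at place 3 with 220 and 174. The pair of KRT19, a keratin of simple epithelia, had 159 and 118, and the pair of ID1, an inhibitor of DNA binding by helix-loop-helix factors, had 263 and 106.

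The differential table holds only peaks that differed between the conditions by its own criterion, and it had no row for DEFB1, neither under its identifier nor under its symbol. A row of the same gene overlapped 32.6% of the shNC peaks and 30.2% of the shNAT10 peaks. Among the peaks with a fold enrichment of 100 or more these shares were 49.6% of 123 in shNC and 49.0% of 96 in shNAT10, and among the 10 highest peaks 4 in shNC and 8 in shNAT10 had a row. The missing row does not show that the ac4C of DEFB1 was equal in both conditions, since the criterion and the values of peaks outside the table were not analysed here.

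The neighbours of DEFB1 in the rankings were peaks of unlike genes. In shNC the next 3 were RPP25 (297), ID1 (263) and PLEC, the gene of the cytoskeletal linker plectin (254), each with 1 exonic block. The overlapping peaks of RPP25, ID1 and PLEC in shNAT10 had 318, 106 and 82.2, so that RPP25 alone was above DEFB1 there. In shNAT10 the 3 places above DEFB1 were held by PSAP, the precursor of the lysosomal saposins (230), IGF2, an insulin-like growth factor (212), and ENSG00000240801 (212), which shares its place in the genome with IGF2. Below DEFB1 came NPIPB3 (206), a member of a family of near-identical copies whose reads may be split or shared, RBPJ, the DNA-binding factor of Notch signalling (202), and SAFB, a nuclear matrix protein (194). In shNC the overlapping peaks of PSAP, IGF2 and RBPJ had 55.3, 51.8 and 7.42, and NPIPB3 and SAFB had none. Of these 6 peaks around DEFB1 in shNAT10, none reached 100 in shNC, where DEFB1 had 342. The 6 peaks were picked by a high shNAT10 value, which by itself goes with a lower shNC value. DEFB1 was chosen by its own fold enrichment, so the contrast cannot be read as a trait of DEFB1.

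The likeness of other genes to DEFB1 over both conditions was measured by the place of the best peak of each gene, as a percent of the genes in each list, and by the sum of the absolute differences from DEFB1. Over the 3241 genes with a peak in both lists, the 5 nearest genes were RPP25, TMEM160, KRT7, EIF5AL1 and CALB2, at sums of 0.221, 0.462, 0.723, 0.883 and 1.02 percentage points. KRT7 is a keratin of simple epithelia and its best peaks had 180 in shNC and 179 in shNAT10. These lay in different parts of the gene, as did the best peaks of CALB2, a calcium-binding protein (170 and 156). EIF5AL1 (199 and 143) closely resembles EIF5A, so its reads may belong to that gene. The measure rests on 2 values per gene and is a description.

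DEFB1 was the defensin with a peak in these lists. RefSeq holds 45 protein-coding genes of the alpha- and beta-defensins, and 44 of them, DEFB4A and DEFB103A included, had no peak in either list. Over all 20056 protein-coding genes of RefSeq, 21.3% had a named peak in shNC and 21.5% in shNAT10. Several of these are copies of each other, such as DEFB4A and DEFB4B. Within 1000000 nt on each side of DEFB1, a stretch that holds the alpha-defensin genes, the shNC list had no other peak, and the shNAT10 list had 1, a peak of the lipid enzyme AGPAT5 on the plus strand with a fold enrichment of 57.5. The lists give no RNA levels, so the absence of a peak does not show that a defensin was not expressed or carried no ac4C.

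Of a wider list of 36 secreted antimicrobial genes other than DEFB1, 5 had a peak in shNC and the same 5 had one in shNAT10. This was a smaller share than the 21.3% in shNC and 21.5% in shNAT10 over all protein-coding genes. However, many of the 36, DEFB4A and DEFB103A among them, are defensins already counted above as having no peak. The smaller share therefore repeats that result in part, and it is not a separate finding about antimicrobial genes. SLPI, a protease inhibitor of mucosal fluids that also kills bacteria, had a fold enrichment of 82.5 in shNC and 75.9 in shNAT10, at places 204 and 212. S100A8 and S100A9 together form calprotectin, which withholds metal ions from microbes. S100A9 had 82.9 in shNC and 30.5 in shNAT10, and S100A8 had 22.8 and 24.2. LCN2, which binds bacterial iron carriers, had 11.2 and 11.1, and ADM, a peptide hormone with antimicrobial activity, had 17.8 and 29.6 for its best peak. By fold enrichment all 5 stood below DEFB1 in each list. DEFB1 was chosen by its fold enrichment and its place in the lists, so its lead in either list is no separate result. By the log10 p-value of the peak caller for the same peaks, LCN2 (-854 in shNC, -881 in shNAT10) and S100A9 (minus infinity, -948) stood ahead of DEFB1 (-780, -761). SLPI stood ahead in shNC only (-939, -695), and S100A8 (-19.6, -98.9) and ADM (-18.4, -45.9) stood behind in both. The median best fold enrichment of the 5 was 22.8 in shNC and 29.6 in shNAT10, against 14.5 and 14.4 over all genes of the lists. S100A9 and ADM had a row in the differential table. The peaks of SLPI and LCN2 had 4 exonic blocks in both lists, and those of S100A8 and S100A9 had 2. Over all peaks, 24.7% in shNC and 23.9% in shNAT10 had more than 1 block.

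Among the genes known to act on or with beta-defensins, 2 of 7 had a peak, in both lists, against the shares of 21.3% and 21.5% over all protein-coding genes. TXN, the thioredoxin that can reduce the disulfide bonds of DEFB1 and so raise its activity, had 18.6 in shNC and 11.0 in shNAT10. EGFR, the growth factor receptor through which beta-defensins have been linked to keratinocyte growth, had 11.6 and 11.2. CCR6, the chemokine receptor that beta-defensins can engage on immune cells, had no peak, and neither had TLR2, TLR4, MC1R and MYD88.

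The lists were searched for markers of cell types in the same way. KRT8, KRT18 and KRT19, keratins of simple epithelia, had peaks in both lists. So had TP63, CDH1 and SFN of the 10 genes listed for squamous epithelium, not all of which are particular to it. By the peak caller, the log10 p-values of their best peaks in shNC were -2.17, -11.7 and -3230, against a list median of -10.1. In shNAT10 they were -6.44, -16.6 and -3730, against a list median of -9.29, so the TP63 peak was weak in both lists. DSP had a peak in shNC only and PERP in shNAT10 only, and KRT5, KRT14, KRT6A, KRT17 and EPCAM had none in either list. None of the 4 markers of leukocytes and the 2 of endothelium had a peak. Over all protein-coding genes only 21.3% had a named peak in shNC and 21.5% in shNAT10. So few markers without a peak therefore do not show which cells were present. Of the 3 fibroblast collagens, COL1A1 had peaks in shNC, the best at 16.6. Since the lists show ac4C peaks and not RNA levels, a missing peak does not show that a marker was not expressed.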

How the data were processed

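RNA of FaDu cells with shNC or shNAT10 was measured by acRIP-seq, with 1 IP and 1 input library per condition. The authors had sequencing and analysis done by a company. The processing notes name cutadapt 2.5, HISAT2 2.1.0, HOMER 4.10.4 and featureCounts 1.6.3 and the builds GRCh38, hg38 and GRCm38, and the peak caller, its thresholds and the scaling between libraries are not given in the sources used here. The deposited peak lists give the fold enrichment as a ratio of IP to input (linear), a p-value, and the log10 p-value and log10 FDR, which were handled as a score because they reach minus infinity. The deposited table of differential peaks holds gene symbols, region classes, motif positions and the authors' fold changes and p-values between the conditions. Of it, only the presence of a row, its position and exonic blocks, and the pairing of identifiers with symbols were used.

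Which list belongs to which condition was taken from the prefix shared with the library titles. Starts were read as counted from 0, since 9 of 34 mitochondrial peaks then began at a RefSeq gene start and 0 otherwise. Genes were named through the differential table (2483 of 6723 identifiers) or by position, where at least 50% of the exonic length of each peak lay in 1 RefSeq protein-coding gene on the same strand, where the strand was known (GRCh38.p14). Together 6143 identifiers (91.4%) were named, and of 2222 named both ways, 96.0% had the same symbol. Peaks overlapped where their exonic blocks shared at least 1 bp of a strand. Pairs were matched 1 to 1 by the largest overlap.

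DEFB1 and the gene lists were chosen with earlier results of these data known. The named genes were DEFB1, the peaks 3 places above and below it, the 5 genes nearest in place over both lists, and members of the lists with a peak. The genes of the 12 pairs strong in both lists, and AGPAT5, were named after their values were seen. No test was run, since there are no replicates. The overlap count was checked on a sample of the shNC peaks, each shifted either a short way or far out of reach of any overlap. The ranking was checked on a short made-up series of values. Alternatives were peaks with an FDR of at most 0.05 or 1e-10, a fold enrichment of at least 4, peaks of like block number or of a length within 50 nt, 1 peak per gene, ranking by p-value, an overlap of at least 50%, and genomic spans. Values were computed in Python 3.11.15 (pandas 2.3.3, numpy 2.4.6, scipy 1.17.1) and plotted with matplotlib 3.10.9.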

Additional observations from a re-analysis of the deposited data

How the results depend on the processing

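There were 22 alternatives to the place of DEFB1, the overlap of its peaks and the number of antimicrobial genes with a peak. Of these, 17 left the value within 1.5 times and 5 moved it. None reversed a direction, but places, overlaps and counts have no direction to reverse. For the overlap, the limit was a 95% Wilson interval of 80.9% to 88.0% over the nucleotides of the peak. Neighbouring nucleotides are not independent, so this interval is an arbitrary limit and measures no spread. Ranked by p-value, DEFB1 stood at place 220 in shNC and 199 in shNAT10, since the p-value is another measure. In shNAT10 it stood at place 3 among the 1082 peaks of 2 blocks and at place 2 among the 496 peaks of a length within 50 nt, where fewer peaks were compared by construction. By genomic span, the shNC peak covered 99.2% of the shNAT10 peak, because the intron is counted. The other alternatives for the shNC list rank a subset of the same fold enrichments, in which the highest value stays first by construction, so they say nothing about stability. The same holds for an overlap of at least 50%, which keeps the same pair of peaks and so the same 84.8%. The count of antimicrobial genes with a peak was 5 in both lists under the 3 limits run. Their best peaks had a fold enrichment of at least 11.1 and a log10 p-value of at most -18.4. These lie well beyond the limits, so the equal count says little about stability. The FDR limits could hardly move the place of DEFB1 in shNAT10 either, since all peaks above it had a log10 p-value of -72.1 or lower. No paired analysis was possible because replicates are lacking. All comparisons of shNC with shNAT10 are limited by this and by the unknown depth.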
